A study of Xenopus laevis with 2 samples.

Results

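Keratins, the intermediate filament proteins of epithelia, were examined in animal caps of Xenopus laevis that had been made to express xnr2. The members were the gene models of the deposited table whose symbol was KRT5, KRT7, KRT8, KRT12, KRT15, KRT16, KRT18, KRT19, KRT70 or KRT78, and they came to 26 of 24364 models, under 6 of the 10 symbols. All models of a symbol were kept apart by chromosome and start. The table used here has no row under KRT7, KRT16, KRT70 or KRT78. Both libraries belong to 1 group: RNA for xnr2, a Nodal ligand, was injected into early cleavage embryos, the caps (the ectodermal roof of the embryo) were cut at stage 10 and kept until stage 14, and 10 explants were pooled per extraction. The genotype label gives exogenous xnr2 expression for both, and the labels number the libraries 1 and 3. Control caps were not analysed here, so that no level below is a response to xnr2. Whether the 2 pools stem from different clutches is not stated in the labels. The p-values weigh a difference between these samples against counting error alone. The SDs measure only the spread between these 2 samples, which may be technical.

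Keratin filaments are built from pairs of an acidic (type I) and a basic (type II) chain. KRT8 (type II) and KRT18 (type I) form the pair of simple, single-layered epithelia, and in the mouse they are also made by the notochord, as is the type I chain KRT19. KRT5 (type II) and KRT15 (type I) belong to the basal layer of mammalian epidermis, and KRT12 (type I) to the mammalian cornea. In Xenopus, genes named krt12 include the embryonic epidermal keratin, an often used sign that ectoderm has become epidermis, which BMP signals promote. The models carry the symbols of human genes, and X. laevis has L and S chromosomes from an ancient genome doubling, so that 1 symbol covers several X. laevis genes. In RefSeq (assembly Xenopus_laevis_v10.1) 71 genes are named krt plus a number, against 54 models with such a symbol in the deposited table. RefSeq names 2 genes krt7, 2 genes krt70 and 15 genes krt78, while krt16 is only a synonym, of krt12.2.L and krt12.2.S. No RefSeq gene is named krt5, and the synonyms of 6 keratin genes hold that name. A symbol below is therefore the deposited name of a model, not the identity of an X. laevis gene.

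The libraries held 25880104 and 29238297 exon reads. They differed in the level of a part of the models. Of 18820 models with at least 10 reads in both together, 4.09% fell at least 2-fold below their library 1 level in library 3. Another 4.05% rose at least 2-fold above it. Both shares are at an adjusted p under 0.05 (two-sided exact binomial test of reads, Benjamini-Hochberg over these models). At the same adjusted p without a fold limit, 22.9% were lower and 30.2% higher. This test compares 2 libraries and not conditions. Levels are given in CPM (counts per 1000000 exon reads) and, where genes are compared, in RPKM (CPM per kb of exon), as mean ± SD (n = 2).

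Keratin members took 0.342% of exon reads in library 1 and 0.378% in library 3 (95% Wilson intervals 0.340 to 0.344% and 0.376 to 0.380%). Their reads came mainly from KRT8 and KRT18, whose models held 90.7% of them in library 1 and 97.7% in library 3. Of the 26 models, 11 reached 1 CPM in both libraries, 15 had at least 10 reads in both together, 3 had 1 to 9 reads and 8 had none.

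**Figure D1:**
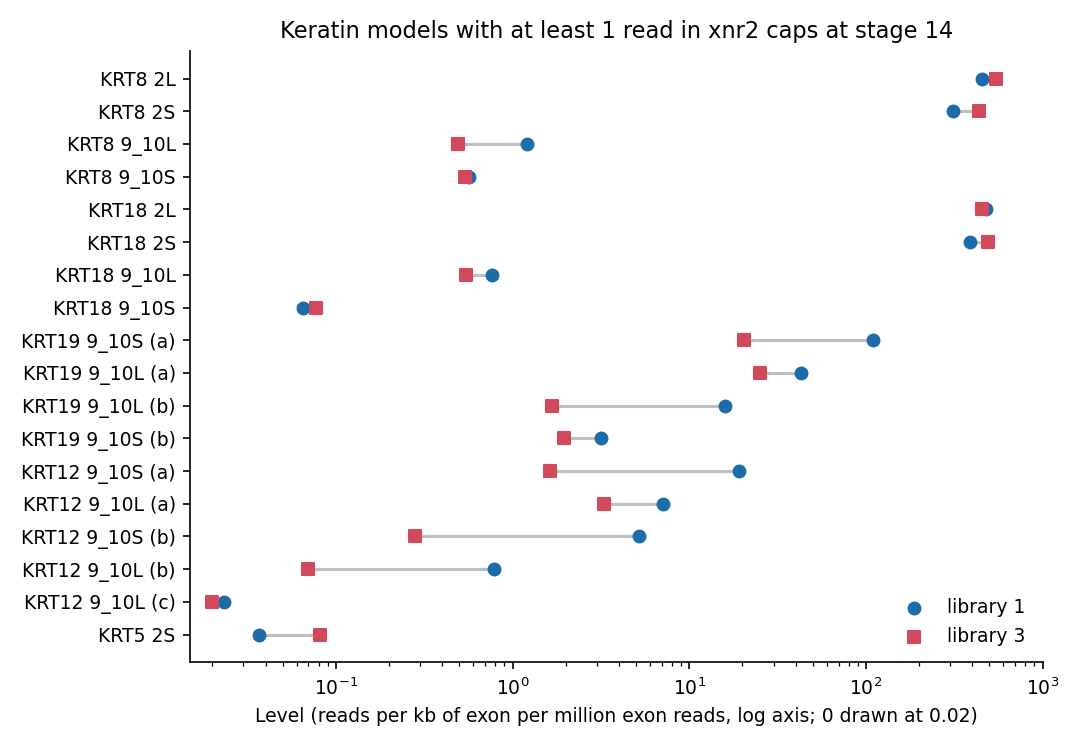
Level of each keratin model with at least 1 read, in RPKM on a log axis, in library 1 (circles) and library 3 (squares), with 1 row per model and letters for models that share a symbol and chromosome. The KRT8 and KRT18 models on 2L and 2S lie between 312 and 545 RPKM in both libraries, and the KRT19 and KRT12 models lie further left in library 3.

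The simple epithelial pair led the family. The KRT8 model on 2L (150185753 to 150195169, plus strand, version 9.1 of the genome) stood at 1043 CPM in library 1 and 1246 CPM in library 3. The KRT8 model on 2S (130464503 to 130474261) stood at 666 and 928 CPM. Both KRT8 copies were higher in library 3. The KRT18 model on 2L (150114833 to 150119139) stood at 751 and 719 CPM, and its counterpart on 2S (130405869 to 130410300) at 635 and 798 CPM. Of the pair's 4 models, the 2L model of KRT18 alone was lower in library 3. Log2 ratios of library 3 over library 1 were 0.26 for KRT8 2L, 0.48 for KRT8 2S, -0.06 for KRT18 2L and 0.33 for KRT18 2S. All 4 lay beyond counting error, and each was under 2-fold, with the smallest difference at an adjusted p of 2.68e-05 for KRT18 2L (exact binomial test). Such differences were common, since 88.0% of the 9565 models with a mean level of at least 10 CPM stayed within 1.5-fold between libraries, as these did.

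Scaled to exon length, the 4 models were close to each other. KRT8 2L reached 501 ± 62.7 RPKM, KRT18 2L 466 ± 14.7 RPKM, KRT18 2S 440 ± 70.9 RPKM and KRT8 2S 374 ± 87.1 RPKM. Neighbours in this order overlapped between libraries, whereas the 2 KRT8 copies did not, at 456 and 545 RPKM on 2L and 312 and 435 RPKM on 2S. Among all models of the table, these levels took ranks 155, 173, 188 and 248. With the 2L and 2S copies added, KRT8 stood at 768 RPKM and KRT18 at 866 RPKM in library 1, and at 980 and 946 RPKM in library 3. The type II chain of the pair was thus 0.887 times the type I chain in library 1 and 1.04 times in library 3. In reads, without regard to length, KRT8 exceeded KRT18 in both libraries, with 55.2% and 58.9% of the pair's reads.

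The L and S copies of KRT18 contributed similar amounts, whereas the 2L copy of KRT8 exceeded the 2S copy in both libraries. Per length, it was 1.46-fold the 2S copy in library 1 and 1.25-fold in library 3. The 2L copy of KRT8 took 61.1% of the reads of both copies in library 1 (95% Wilson interval 60.6 to 61.5%) and 57.3% in library 3 (56.9 to 57.7%). The 2L copy of KRT18 took 54.2% (53.7 to 54.7%) and 47.4% (46.9 to 47.9%). The L share of both genes was lower in library 3, and that of KRT18 crossed the middle. Reads of near-identical copies may be split between models or lost, and the sources used here do not say how the authors' counting treated them.

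**Figure D2:**
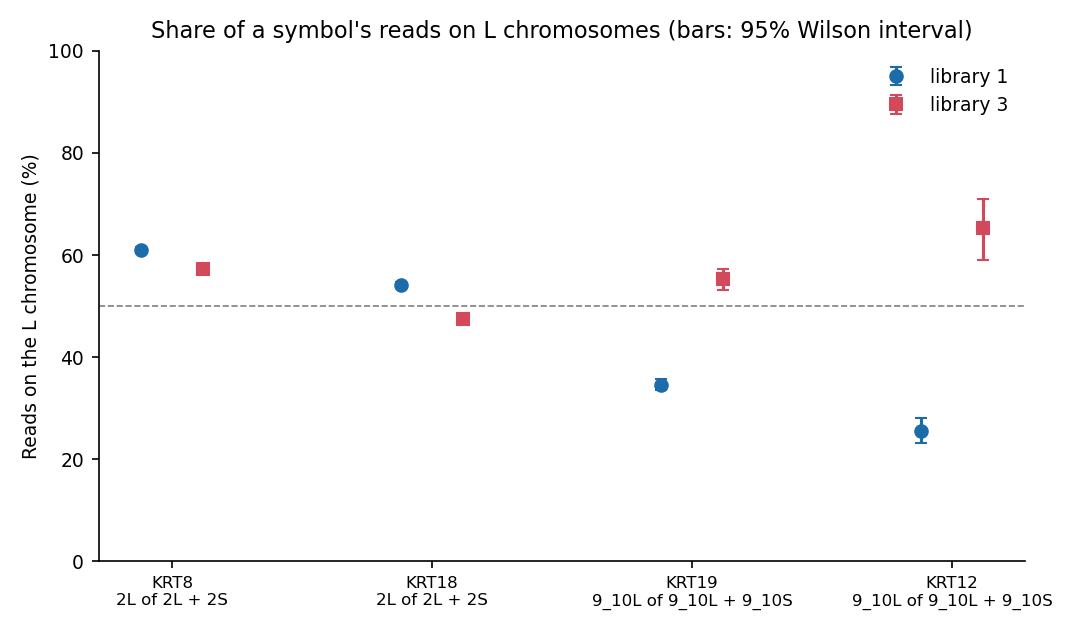
Percent of a symbol's reads that fall on L chromosomes, per library, with 95% Wilson intervals that cover counting error only. The L share is 61.1% and 57.3% for KRT8 and 54.2% and 47.4% for KRT18, while it rises from 34.6% to 55.2% for KRT19 and from 25.5% to 65.3% for KRT12 between libraries 1 and 3; for the last 2 symbols each chromosome pools several models.

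Another KRT8 and KRT18 pair lies side by side on 9_10L and on 9_10S, far from the other keratins of those chromosomes, and was close to the lower limit of detection. On 9_10S the pair's models are separated by 24 bases and on 9_10L by 916 bases, on opposite strands. KRT8 on 9_10L (50046420 to 50056181) had 48 and 22 reads in libraries 1 and 3, or 1.86 and 0.752 CPM, a 2.46-fold lower level in library 3 (95% exact interval 1.46 to 4.29, adjusted p = 8.25e-04 by the exact binomial test). KRT8 on 9_10S had 38 and 41 reads, KRT18 on 9_10L had 31 and 25 reads, and KRT18 on 9_10S had 3 and 4 reads. The first 2 of these had log2 ratios of -0.06 and -0.44, with 95% intervals of -0.74 to 0.61 and -1.31 to 0.32, which include no difference. The third had too few reads for the test. On 9_10S the KRT8 model held 92.7% of the pair's reads in library 1 (Wilson interval 80.6 to 97.5%) and 91.1% in library 3 (79.3 to 96.5%).

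KRT19, the name of a small type I keratin that lacks most of the usual tail, came next in level among the members. Each of its 4 models was lower in library 3. RefSeq names only 2 genes krt19, so that some of these models may be other genes. The model on 9_10S at 876177 to 879959, the first keratin of its cluster, stood at 172 CPM in library 1 and 31.8 CPM in library 3. It was 5.40-fold lower in library 3 (95% exact interval 5.03 to 5.80), with an exact p below the range of double precision. The model at the head of the cluster on 9_10L (1012346 to 1016228) stood at 24.6 and 2.57 CPM, 9.60-fold lower in library 3 (7.54 to 12.4, adjusted p = 8.60e-126, exact binomial test). These 2 models had the larger falls of the symbol. The model on 9_10L at 1097993 to 1103702 had 68.7 and 40.4 CPM, a log2 ratio of -0.77 and an adjusted p of 3.35e-45 in the exact test. The model on 9_10S at 949003 to 955260 had 4.91 and 3.04 CPM, a log2 ratio of -0.67 and an adjusted p of 0.00166 in the exact test. Neither of these 2 reached a 2-fold difference. Averaged over libraries, the 4 models reached 64.9 ± 63.1, 8.84 ± 10.1, 34.2 ± 12.6 and 2.56 ± 0.848 RPKM in the order given, so that the SD of the first 2 was about as large as their mean.

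KRT12 was lower still and showed the widest gaps between libraries. In library 3, each of the 4 KRT12 models with at least 10 reads was at least 2-fold lower, beside 4.09% of all models tested. On 9_10S, the model at 1087214 to 1090663 had 718 reads in library 1 and 69 in library 3, or 27.7 and 2.36 CPM. That level was 11.8-fold lower in library 3 (95% exact interval 9.17 to 15.3, adjusted p = 4.04e-153, exact binomial test). Of the 9565 models at a mean of 10 CPM or more, 8 had a lower log2 ratio than this one. For KRT19, 11 had a lower one than the model at 1012346 on 9_10L and 16 a lower one than that at 876177 on 9_10S. KRT12 at 1087214 and KRT19 at 1012346 reached that mean only through library 1, with 2.36 and 2.57 CPM in library 3. Their places are thus partly set by the cut and are description only. The other tested 9_10S model (1040971 to 1046348) fell from 212 reads to 13, 18.4-fold lower in CPM (10.5 to 35.2, adjusted p = 1.66e-51, exact binomial test). It had the lowest ratio of the 15 keratin models tested, at -3.93 on the log2 scale with 0.1 added to each CPM. On 9_10L, the model at 1217034 to 1222593 had 288 and 151 reads, 2.15-fold lower in library 3 (1.76 to 2.64, adjusted p = 3.63e-14, exact binomial test). The 9_10L model at 1269279 to 1273722 had 30 and 3 reads, and reached 10 reads only through library 1. Its ratio was 11.3, with an exact interval of 3.51 to 57.9 and an adjusted p of 6.51e-07 in the exact test. Its call is thus partly set by that filter. With a pseudocount of 1 CPM in place of 0.1, the log2 ratios of these 2 models on 9_10L were -0.98 (1217034) and -0.97 (1269279), short of 2-fold. A further 9_10L model had 1 read in library 1, and 2 on 9_10S had none.

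The 9_10S models of KRT12 and KRT19 differed more between libraries than the pooled 9_10L models. The 9_10L models of KRT12 held 25.5% of its reads in library 1 (95% Wilson interval 23.2 to 28.0%) and 65.3% in library 3 (59.0 to 71.0%). Those of KRT19 held 34.6% (33.5 to 35.7%) and 55.2% (53.2 to 57.2%). The intervals of the 2 libraries did not overlap for either symbol. These shares pool models that may be different genes, and the 9_10L model of KRT19 at 1012346 itself was 9.60-fold lower, so that the contrast does not hold for every model.

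KRT5 and KRT15, the basal epidermal keratins of mammals, were at or near 0. Of 5 KRT5 models on 2L and 2S, 4 had no read in either library and the fifth had 2 and 5 reads. Both KRT15 models, on 9_10L and 9_10S, had no read. With a count of 0, levels up to the equivalent of 3 reads remain possible, which is 0.116 CPM in library 1 and 0.103 CPM in library 3. Near zero values hold for the models as named, and X. laevis genes that RefSeq lists under krt5 as a synonym may stand in the table under other symbols. RefSeq also gives krt15 as a synonym of krt19.L and krt19.S. Genes also called krt15 may therefore be among the KRT19 models, which had reads.

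Over the 15 keratin models tested, 7 fell at least 2-fold in library 3, where the background over all models was 4.09%, and 0 were at least 2-fold higher, where it was 4.05%. At an adjusted p under 0.05 without a fold limit (exact binomial test), 10 of 15 were lower and 3 were higher, beside 22.9% and 30.2% of all models. The 3 higher ones were KRT8 on 2L and 2S and KRT18 on 2S. The median log2 ratio of the 15 was -0.77, against 0.05 over all 18820 models. Of the 7 models, 4 were called KRT12, 2 KRT19 and 1 KRT8. KRT12 at 1269279 on 9_10L, with 30 and 3 reads, entered the test only through library 1. The models of KRT12 and KRT19 lie in the same clusters and are not independent members. Per symbol, from summed reads, 2 of 4 tested were at least 2-fold lower, KRT12 and KRT19. The members were chosen with earlier results of these data known. Their counts beside those of all models are therefore description and no test of enrichment. The summed level of KRT12, KRT15 and KRT19 models went from 318 to 85.9 CPM between libraries 1 and 3. That of KRT8 and KRT18 on 2L and 2S went from 3095 to 3691 CPM, or 1.19-fold. Each of these 4 models stayed within 1.5-fold, as did 88.0% of models at a mean of 10 CPM or more. Fewer cells of a type and less RNA per cell cannot be told apart in such pools.

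**Figure D3:**
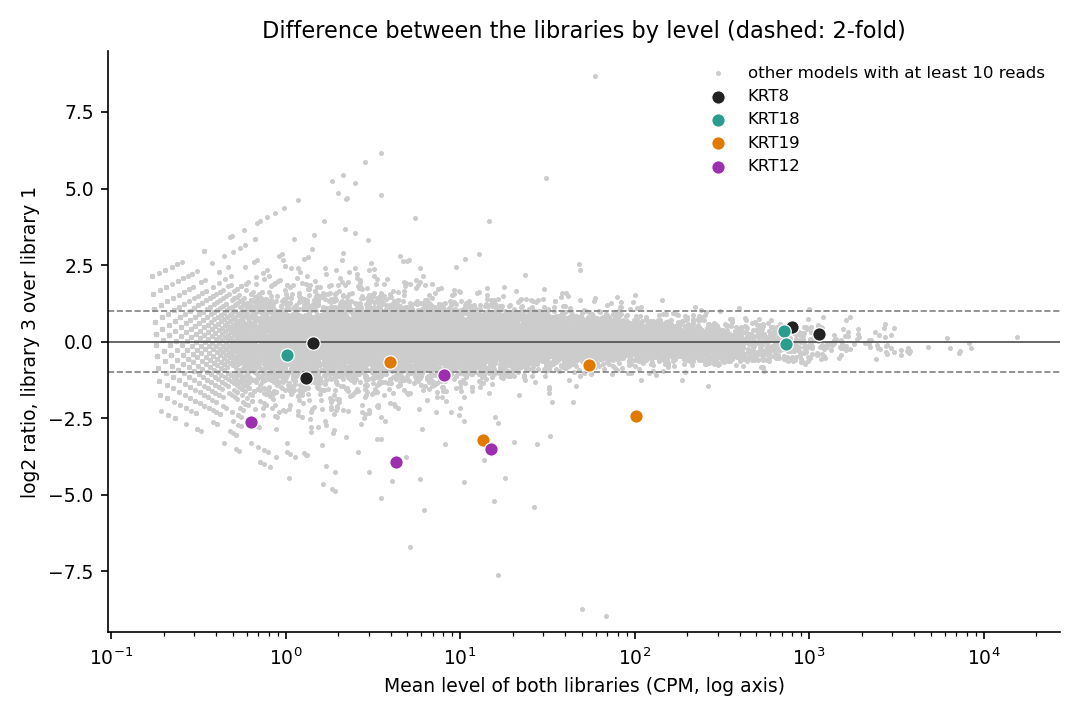
Log2 ratio of library 3 over library 1 against mean level in CPM (log axis) for the 18820 models with at least 10 reads, with keratin members in colour and dashed lines at 2-fold. KRT8 and KRT18 on 2L and 2S sit at the right between -0.06 and 0.48, and the KRT12 and KRT19 models all lie below 0, down to -3.93.

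Among the members, the balance of type I to type II chains shifted with these models. Reads of type I members (KRT12, KRT15, KRT18 and KRT19) made up 49.9% of type I and type II reads in library 1 (95% Wilson interval 49.6 to 50.2%) and 42.4% in library 3 (42.1 to 42.7%). Per length, type I models summed to 1071 RPKM and type II models to 770 RPKM in library 1, and to 1001 and 981 RPKM in library 3. The log2 ratio of type I to type II was -0.01 and -0.44 in reads and 0.48 and 0.03 per length. Its sign thus depends on the scale, while on both it was lower in library 3. No model of a chain under another symbol enters these sums. Left out were models with type II names, KRT75 on 2L (237 and 181 CPM) and KRT6A on 2S (265 and 111 CPM). Both were lower in library 3. Counted as type II by name, they would lower the type I share in both libraries, in reads and per length. The values above therefore hold for the members alone.

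Of the 54 keratin models, 49 lay in 4 clusters, and the others were the KRT8 and KRT18 pairs on 9_10L and 9_10S described above and a KRT14 model on 6L. The cluster on 2L spans 518 kb and holds 9 keratin models and no other model of the table, and that on 2S spans 445 kb and holds 9. On 9_10L, 17 keratin models and 1 other model lie within 391 kb, and on 9_10S 14 keratin models lie within 304 kb. In both clusters of chromosome 2 the sequence opens with KRT18 on the minus strand and KRT8 on the plus strand, the 2 highest models, and the KRT5 models that follow were at or near 0. KRT18 there neighbours type II genes, away from the type I clusters on 9_10L and 9_10S. Within the type I clusters, both KRT15 models, without reads, lay next to KRT19 models that had them.

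**Figure D4:**
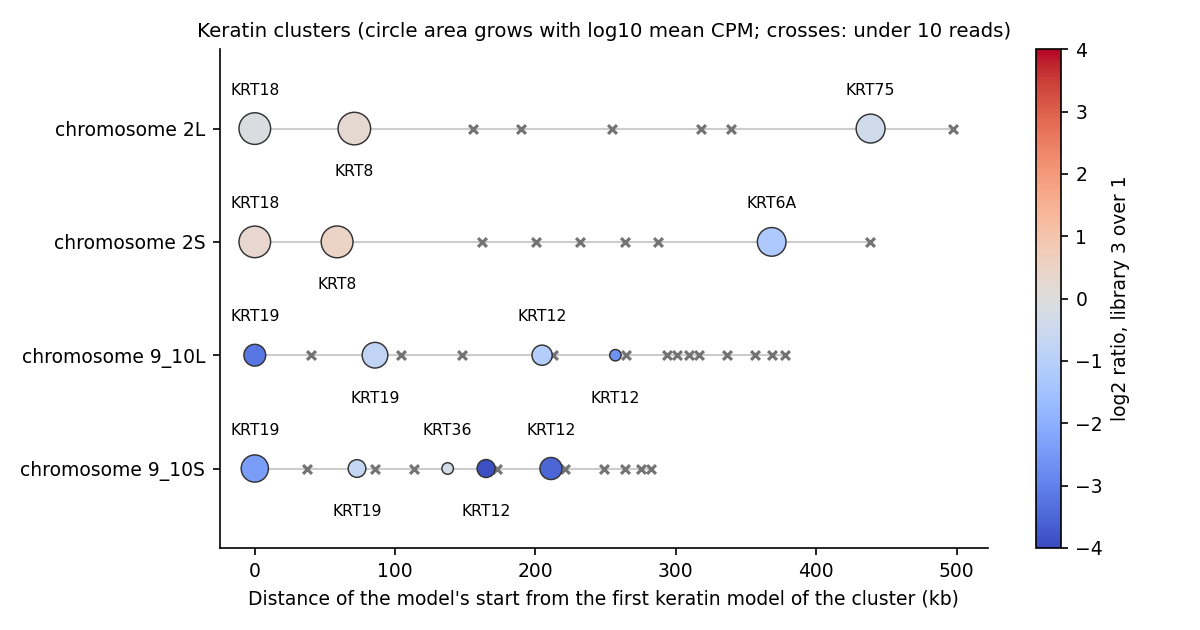
Keratin models along the 4 clusters, by distance in kb from the first model, with circle area by mean level, colour by log2 ratio of library 3 over library 1, and crosses for models under 10 reads. KRT18 and KRT8 open the clusters on 2L and 2S, and every coloured KRT19 and KRT12 circle on 9_10L and 9_10S is blue, meaning lower in library 3.

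Of the other 28 keratin models, 3 had at least 10 reads and 15 had none. A model called KRT75 on 2L (150553610 to 150559588) stood at 237 and 181 CPM in libraries 1 and 3, a log2 ratio of -0.39. A model called KRT6A on 2S (130774171 to 130780874) stood at 265 and 111 CPM, a log2 ratio of -1.25, and was at least 2-fold lower in library 3. KRT36 on 9_10S had 29 and 27 reads. Per length, KRT75 reached 102 ± 19.3 RPKM and KRT6A 76.3 ± 44.1 RPKM, in mean next after the KRT8 and KRT18 models of 2L and 2S and ahead of every KRT19 model. In the deposited table they are the keratin models that come before KRT80 on 2L and 2S, and in RefSeq the keratin gene before krt80 is named krt7 on both chromosomes. No model was renamed on this ground. The fourth in level, another KRT75 model on 2L, had 8 reads in library 1 and 1 in library 3.

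Genes of other intermediate filaments and of the junctions that anchor keratin were mostly within 2-fold between the libraries. In the list of intermediate filaments and plakins (cytolinker proteins), 3 of 29 tested models passed the 2-fold call toward lower values in library 3 and 0 toward higher ones, beside 4.09% and 4.05% of all models, with a median log2 ratio of 0.11 against 0.05 over all models. The 3 lower models were the plakin EVPL, at 4.48 and 2.02 CPM in libraries 1 and 3, and 2 called PPL. Those of PPL, also a plakin, summed to 2.86 and 0.718 CPM. The list was led by desmin, the muscle filament protein DES, at 1188 ± 71.0 CPM (9_10L) and 1154 ± 88.6 CPM (9_10S). The nuclear lamin LMNB1 followed at 556 ± 3.51 CPM (1L), and plectin, PLEC, which ties filaments to junctions, stood at 151 and 251 CPM (6S) in libraries 1 and 3. Among desmosome and hemidesmosome genes, 1 of 20 tested models was at least 2-fold lower and 0 higher, beside the same 4.09% and 4.05%. The median was 0.12. The lower model was the integrin ITGB4, at 2.47 and 0.889 CPM in libraries 1 and 3. The plakophilin PKP3, which links desmosomal cadherins to filaments, reached 127 ± 21.7 CPM (4S), and PKP4 reached 126 ± 9.49 CPM (9_10L). The tetraspanin CD151 reached 103 ± 25.4 CPM (4L), and desmoplakin, DSP, which binds keratin itself, stood at 76.7 and 85.7 CPM (6L) and at 51.1 and 33.7 CPM (6S) in libraries 1 and 3, so that its 2 models went opposite ways.

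Some epidermal regulators and goblet cell genes were lower in library 3, as KRT12 and KRT19 were. Of 48 tested models of epidermal regulators, 13 passed the 2-fold call as lower in library 3 and 1 as higher, beside 4.09% and 4.05% of all models, with a median log2 ratio of -0.46 and a summed level of 1060 and 875 CPM in libraries 1 and 3. The list was led by 4 models called VENTX, a BMP-driven repressor, of which those on 7S at 16870252 (156 and 93.9 CPM) and on 7L at 21784572 (135 and 86.4 CPM) were lower in library 3 and the other 2 were slightly higher. All 9 VENTX models together made up 734 and 652 CPM of the summed level, which therefore says little about the other regulators. GRHL3, a factor of surface epidermis picked after its values were seen, summed to 14.0 and 0.821 CPM over 2 models. The epidermal stem cell factor TP63, picked likewise, summed to 1.66 and 2.29 CPM. Of 7 tested goblet cell models, 3 passed the 2-fold call as lower and 0 as higher, beside the same 4.09% and 4.05%. Their list summed to 150 and 101 CPM. XBP1 made up 74.5 and 87.5 CPM of that sum, which therefore says little about the other members. The secreted lectin ITLN1 had 788 and 21 reads (7L) and the mucin-like OTOG 528 and 22 reads (7L), while ITLN2 stood at 23.8 and 10.6 CPM (1L) and XBP1 at 69.9 and 81.1 CPM (1L). TFF1 and TFF2 had no read in either library. The part of these genes in the keratin difference was not tested.

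Markers of other cells that the caps could hold were read beside the keratins, and their 2-fold calls stand against the same 4.09% (lower) and 4.05% (higher) of all models. Notochord markers were of interest since mouse notochord makes KRT8, KRT18 and KRT19. In libraries 1 and 3, KRT8 summed to 1712 and 2176 CPM and KRT18 to 1387 and 1518 CPM. The 4 models called KRT19, of which some may be other genes, went the other way, from 270 to 77.8 CPM in sum. The markers were at least 2-fold higher in library 3 in 4 of 16 tested models and lower in 0. They summed to 1372 and 2321 CPM, of which the collagen hydroxylase PLOD2 made up 849 and 1399 CPM. Its model on 5L led the list at 737 and 1235 CPM. By log2 ratio, 11 of the 16 models were above 0 and 5 below, among them those of FOXA2 and CTGF. No model of NOTO or COL2A1 matched by name. Multiciliated cell markers were at least 2-fold higher in 7 of 20 tested models and lower in 0, and summed to 211 and 365 CPM. Of those 7 models, 5 were called TUBA1A, an alpha tubulin that many cell types make, and without TUBA1A, a split made after its values were seen, the list had 2 of 13 tested models 2-fold higher and summed to 116 and 130 CPM. The regulators MCIDAS (1 and 3 reads), FOXJ1 (151 and 115) and RFX2 (787 and 529) were low or lower in library 3. Structural genes of cilia such as DNAH9 (87 and 290 reads), TEKT2 (94 and 346) and DNAI1 (614 and 970) were higher. SPAG6 (33.6 and 31.5 CPM) was not. Without TUBA1A, 5 of the 13 models were higher and 4 lower at an adjusted p under 0.05 (exact binomial test). The shares over all models were 30.2% and 22.9%. Skeletal muscle markers summed to 33580 and 32950 CPM, with 0 of 23 tested models past 2-fold in either direction. Neural plate markers summed to 740 and 746 CPM (4 of 28 lower, 5 higher), endoderm markers to 751 and 751 CPM (2 of 20 lower, 0 higher, HHEX at 0 reads) and ionocyte and small secretory cell markers to 178 and 191 CPM (2 of 13 lower, 0 higher, TPH1 at 0 reads). FOXA1 is in both of the last 2 lists and made up 156 and 171 CPM of the last sum. That sum therefore says little about other members, such as SLC4A1 at 10.9 and 10.5 CPM and FOXI1 at 2.09 and 0.718 CPM. Likewise TUBB2B (517 and 549 CPM) and GMNN (163 and 126 CPM) made up most of the neural plate sum. CDX2 (375 and 399 CPM) and FOXA1 made up most of the endoderm sum. Both sums therefore say little about the other members of their lists. By log2 ratio, 18 of the 28 tested neural plate models were above 0 and 10 below. Of the 20 tested endoderm models, 8 were above 0 and 12 below. The caps thus held muscle as well as epithelial transcripts, and the part of any of these cells in the keratin levels was not tested.

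The ratio between the libraries also followed exon length across all models, with a median from -0.14 in the shortest of 10 length classes to 0.24 in the longest. The keratin members tested fall in classes of 1435 to 1751, 2063 to 2428 and 2429 to 2831 bases, whose medians were -0.02, 0.03 and 0.02. After subtraction of the class median, KRT12 at 1040971 on 9_10S stood at -3.91 and KRT8 on 2S at 0.45, and the same number of keratin models, 7, was at least 2-fold lower in library 3.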

How the data were processed

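Per the file headers, the authors counted exon reads per gene model with HOMER on Mayball gene models placed on version 9.1 of the X. laevis genome and rescaled each library by 1 constant, so the deposited signal is a scaled exon read count. Per the submitters' processing notes, FastQC, STAR 2.4.0k, HOMER and edgeR were used; how multiply mapping reads were treated is not stated in those notes or headers. Other deposited columns used were model positions and exon length. Dividing by the value of 1 read (0.808 and 0.715 in libraries 1 and 3) turned 100.0% of the values above 0 into whole numbers (tolerance 0.05). Each library therefore has a known depth (25880104 and 29238297 reads), and models called NA or UNNAMED (519) stayed in the totals.

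Every model whose reads summed to 10 or more over both libraries was tested across all models with a two-sided exact binomial test (SciPy 1.17.1) against library 3's share of all reads, with Benjamini-Hochberg adjustment over the whole table; calls needed an adjusted p under 0.05 and a 2-fold difference. Log2 ratios, and the 2-fold limit of the calls, used CPM + 0.1. Folds and the exact intervals of ratios used CPM with nothing added, and so can differ from the log2 ratios at low counts. The test was checked on simulated data that held counting error alone, as the test itself assumes. That check says nothing about spread between pools beyond counting error. With 1 group, no edgeR or DESeq2 test could be fitted; edgeR 4.0.16 (TMM) and DESeq2 1.42.0 (size factors) gave alternative scalings. Intervals (Wilson for shares, exact for ratios) cover counting error only. Named were keratin members at a mean of 10 CPM or more, the 5 lowest and 5 highest ratios among those tested, and genes from the 4 highest models of other keratins and of each list; the remaining members named were added for completeness. Members and the 10 gene lists were chosen with earlier results of these data known, and the naming of GRHL3, TP63 and genes at or near 0 after their values were seen. Counts of 2-fold calls among members or lists, set beside the shares of all models, are therefore description only. No sequence is shown, as none was used here.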

Additional observations from a re-analysis of the deposited data

How the results depend on the processing

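The number of keratin models at least 2-fold lower in library 3 was 7 with edgeR's TMM factors, DESeq2's size factors, subtraction of the length class median and no filter on reads, and 6 with at least 50 reads. It was 4 with a pseudocount of 1 CPM, which shrinks the ratio of low models by construction; the 3 models that lost the call were KRT12 at 1269279 (-0.97) and 1217034 (-0.98) and KRT8 at 50046420 (-0.70), all on 9_10L. With all models of a symbol added up it was 2 of 4 symbols tested, KRT12 and KRT19. The count of models at least 2-fold higher was 0 in every one of these settings. The median log2 ratio ranged from -0.83 to -0.70 and was -0.57 with no filter, where 18 models entered in place of 15. Of 44 values for 11 keratin models (2 scalings, the length class and the pseudocount), 43 kept their direction and their call. These 11 were the models named by level or by an extreme ratio. They leave out KRT12 at 1217034 and KRT8 at 50046420, which lost the call above. Among the 11, the exception was KRT12 at 1269279, at -2.64 with a pseudocount of 0.1 CPM. The log2 ratio of type I to type II chains was -0.22 in reads and turned to 0.25 per length, where type I models are shorter (median exon length 1569 against 2267 bases). Over single libraries the keratin share of reads ranged from 0.342 to 0.378%, the type ratio from -0.44 to -0.01 and the share of KRT8 and KRT18 from 90.7 to 97.7%. With 2 libraries, the SD has 1 degree of freedom, and models under 10 reads could not be tested. No paired analysis was possible because both libraries belong to 1 group.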
